A study of Rattus norvegicus with 8 samples.

Results

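Chemokines, interleukins and the receptors of both were described in the rat retina by every array gene name that begins with Ccl, Cxcl, Ccr, Cxcr or Il followed by a digit. The arrays held 26334 gene names outside control spots, and 121 of them fit these patterns, on 136 probes and 208 spots per array. The samples were whole retinas of female Lister Hooded rats aged 8 weeks, 4 from sham-operated animals (CTR) and 4 from animals with a crush of the optic nerve behind the eye (ONC). In sham animals the nerve was exposed but not crushed, and all retinas were taken 2 weeks later. Total RNA was labelled with Cy3 (green) or Cy5 (red) and hybridised to 4 Agilent arrays, so that 8 channels hold 8 retinas. Retinas were profiled individually per the study's methods, and the number of arrays limits the precision.

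According to the labels, every CTR retina carried Cy5 and every ONC retina Cy3, and retinas with the same number shared an array. Effects of the dye and of the condition thus cannot be told apart. The study's methods describe other pairs, with retinas of the same condition on each array and the dyes divided within a condition. Markers of retinal ganglion cells (RGCs), the neurons whose axons a crush severs, go against the labels. Of 14 RGC markers, 10 were measured above the filter, and their summed level on a linear scale was 5.87, 30.4, 7.08 and 9.06 over CTR1 to CTR4. Over ONC1 to ONC4 the sum was 37.4, 35.8, 39.2 and 8.86. The brightest was Tubb3, the markers Pou4f3, Isl2 and Nrn1 were below the filter, and Pou4f1 had no spot by that name. The median log2 fold change of these markers was 1.29 towards the channels labelled ONC, opposite to the known effect of a crush on RGCs. It is also opposite to the direction that the study gives for RGC markers, both on its arrays and by qPCR in other animals. Counts of labelled RGCs in the study were likewise lower after ONC. CTR2 and ONC4 each stood apart from their own group. Channels are therefore named by their labels throughout, the main results are also given without CTR2 and without ONC4, and no channel was moved to another group. In whole tissue, fewer cells of a type and less RNA per cell cannot be told apart.

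Chemokines are small secreted proteins that guide migrating cells by binding G protein-coupled receptors, and the CC and CXC families differ in the spacing of conserved cysteines. Interleukins are secreted signals between immune and other cells that act through receptors built from ligand-binding and signalling chains. In the retina, microglia, Müller glia, astrocytes, endothelium and neurons can all make some of these ligands, and many are present at very low levels until an injury or infection induces them.

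A spot reached the filter when its mean foreground was at least 2 times the median local background in all 8 channels. Of 208 spots, 75 did so, on 50 probes of 44 genes, and 77 of the 121 genes had no such spot. The share of genes that reached it was 36.4%, against 63.1% of all gene names on the array, 16623 of 26334. Leaving out spots that the scanner software marked as non-uniform or as population outliers left 67 spots of the same 44 genes.

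The red channels set this count, since 75 member spots reached the factor in all 4 red channels and 198 did so in all 4 green channels. All red channels are labelled CTR, so a member dim in CTR is absent from the comparisons below, whatever its signal in ONC. Median background was 55 to 56.5 in the red channels and 26 to 29.5 in the green channels. The 153 negative control spots, which match no rat transcript, had a median foreground 1.11 to 1.17 times the background in red and 2.40 to 2.55 times in green. A green ratio slightly above 2 is therefore the level of a spot without a target. The scanner software's own test for a signal well above background was met in all 8 channels by 39 of the 44 genes. Cxcl13, Il18r1, Il1rn, Il22 and Il25 met it in every channel but ONC4. ONC4 was the dimmest channel, with a median foreground of 218 against 332 to 495 in the other ONC channels and 66.8% of all spots well above background, against 72.5% to 79.4% elsewhere.

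**Figure D1:**
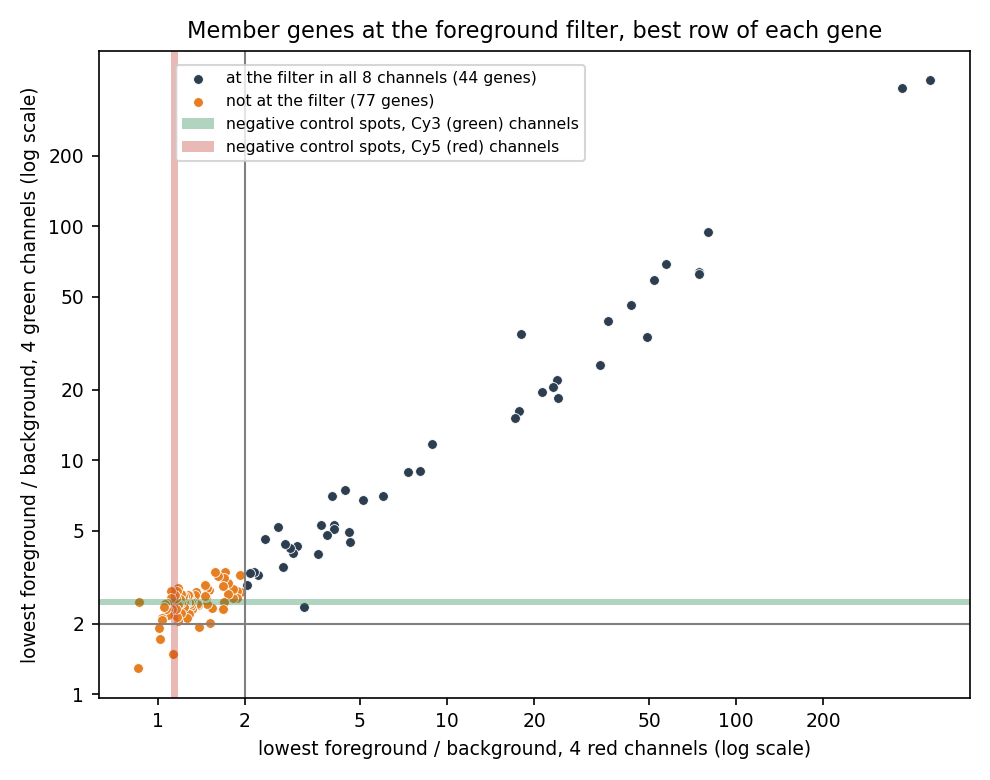
Lowest foreground over background in the 4 red channels (horizontal, log scale) and in the 4 green channels (vertical, log scale) for the best spot of each of the 121 genes; grey lines mark the factor of 2 and bands the medians of negative control spots, 1.11 to 1.17 in red and 2.40 to 2.55 in green. All 77 genes outside the filter fall short on the red axis, and Cxcl13 passes at 2.36 in green, just under the level of the negative controls.

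By role, 8 of 20 CC chemokines passed (Ccl2, Ccl5, Ccl6, Ccl9, Ccl19, Ccl22, Ccl24 and Ccl27), as did 5 of 12 CXC chemokines (Cxcl12, Cxcl13, Cxcl14, Cxcl16 and Cxcl17). Among chemokine receptors, 3 of 10 CC receptors passed, Ccr9 and Ccr10 among them, and 0 of 6 CXC receptors. Of 34 interleukins, 11 passed, namely Il11, Il15, Il16, Il17b, Il17d, Il18, Il22, Il23a, Il25, Il33 and Il34. All 3 antagonists or binding proteins passed (Il1rn, Il36rn and Il18bp), with 14 of 36 interleukin receptor chains. These were Il1r1, Il1rapl2, Il2rg, Il3ra, Il4r, Il6r, Il6st, Il10rb, Il11ra1, Il12rb2, Il13ra1, Il17ra, Il17re and Il18r1.

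Members near the threshold were dim on both sides of it. Just inside were Il1rn, the antagonist of the interleukin 1 receptor, with a lowest ratio of 2.04, Il22 with 2.09 and Il18r1 with 2.15. Just outside were Il13ra2, a decoy receptor for interleukin 13, with 1.95, Il1rap with 1.92 and Ccr1l1 with 1.88. Cxcr4, the receptor of Cxcl12, had a lowest ratio of 1.58 and was well above background in 5 channels. For 43 of the 121 genes, no spot was well above background in any channel, and these included Il6, Il10, Il4, Il2 and Ccr2. The other 34 genes outside the filter were well above background in at least 1 channel.

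Some of these were bright in a single channel or in several, and 8 had a ratio of at least 5 in a spot without an outlier mark. Among the 8 were Il2ra with 7.16 in ONC1, and Il20 with 6.21, Il12a with 5.34 and Il1rap with 5.27, each in ONC2. Il1rap was well above background in 7 channels and Il20 in 6. Il12a was well above it in CTR2, ONC1, ONC2 and ONC3, with ratios of 2.84, 3.64, 5.34 and 4.08. Cxcl10, a chemokine induced by interferons, had ratios of 5.30, 1.62, 16.1 and 13.0 over CTR1 to CTR4. In the ONC channels its ratios were 4.37, 3.20, 4.75 and 3.65. It was thus bright in CTR3 and CTR4 and missed the filter through CTR2 alone. Ccl20, the ligand of Ccr6, had ratios of 11.3 and 19.14 on its pair of probes in CTR3, and of 2.56 and 3.51 in CTR4. In CTR1 and CTR2 its ratios were 1.12 to 1.53, and in the ONC channels 1.98 to 2.83, around the level of negative controls. Cxcl1, which attracts neutrophils, has 10 copies on the array, and its brightest copy had a ratio of 6.05 in CTR3 and 4.08 in CTR4 against 1.81 in CTR1 and 1.66 in CTR2. Ccl12, a monocyte attractant of rodents, had a ratio of 4.91 in CTR3 and 1.69 to 1.95 in the other CTR channels. Ccr6 had a ratio of 14.7 in ONC4, with 2.71 in CTR4, its partner on the array.

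**Figure D2:**
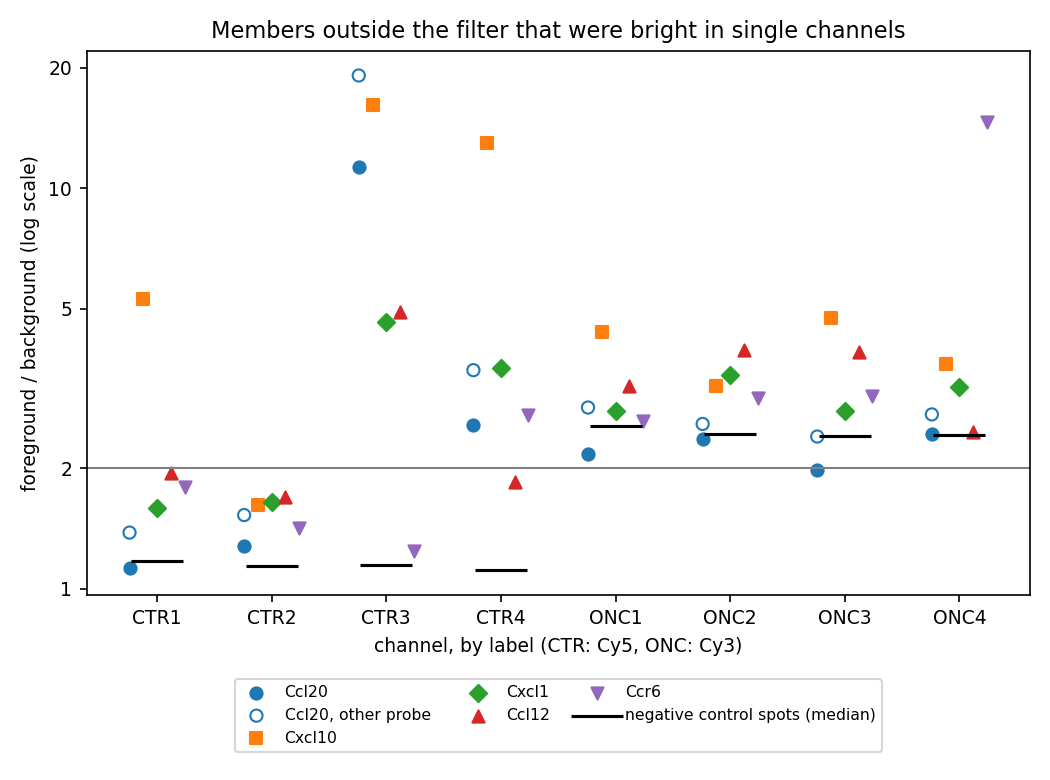
Foreground over background (vertical, log scale) by channel for 5 genes outside the filter, chosen after their values were seen; each point is a probe (the median over copies without an outlier mark), black bars are the medians of negative control spots and the grey line is the factor of 2. Ccl20, Cxcl10, Cxcl1 and Ccl12 are brightest in CTR3, and Ccr6 is at 14.7 in ONC4.

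Promoters of 3 genes of this kind, Cxcl1, Cxcl10 and Ccl20, are shown because their signals were highest in the same channels, CTR3 and CTR4, a choice made after their values were seen. RefSeq gives a window of 300 bases (250 before and 50 after the start, assembly GRCr8) for 93 of the 121 genes, and the window of Ccl2 is not in it. Capitals mark GGGANNTTC, the first 9 letters of a kappa B-like element, and TATAAA, each searched on both strands; a match to GGGANNTTC can overlap a match on the other strand, and in these windows it does so in Cxcl1 and in Cxcl10. The Cxcl1 window (chr14:17479272-17479571, minus strand) holds 2 matches to GGGANNTTC, the Cxcl10 window (chr14:15988816-15989115, plus strand) 3, with 1 match to TATAAA, and the Ccl20 window (chr9:91836909-91837208, plus strand) 0 of either.
Cxcl1: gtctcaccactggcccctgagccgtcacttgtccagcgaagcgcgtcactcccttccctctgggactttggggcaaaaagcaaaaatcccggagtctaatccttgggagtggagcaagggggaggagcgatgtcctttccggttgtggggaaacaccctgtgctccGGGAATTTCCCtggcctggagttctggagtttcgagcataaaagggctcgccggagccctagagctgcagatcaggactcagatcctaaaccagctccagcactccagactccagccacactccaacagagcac
Cxcl10: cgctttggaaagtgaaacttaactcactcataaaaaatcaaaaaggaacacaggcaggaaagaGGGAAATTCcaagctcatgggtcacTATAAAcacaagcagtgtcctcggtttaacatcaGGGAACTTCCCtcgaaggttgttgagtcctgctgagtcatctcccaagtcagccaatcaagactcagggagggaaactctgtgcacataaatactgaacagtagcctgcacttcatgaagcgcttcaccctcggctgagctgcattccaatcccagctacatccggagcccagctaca
Ccl20: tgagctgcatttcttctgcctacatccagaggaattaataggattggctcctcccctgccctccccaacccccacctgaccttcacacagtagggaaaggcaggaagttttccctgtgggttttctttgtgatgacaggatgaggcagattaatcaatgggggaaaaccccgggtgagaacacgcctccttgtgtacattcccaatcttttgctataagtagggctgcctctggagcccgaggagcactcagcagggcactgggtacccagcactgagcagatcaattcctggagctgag

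Over all 33469 windows in RefSeq, 4.05% held GGGANNTTC and 14.2% held TATAAA. Among the 93 windows of chemokine, interleukin and receptor genes, 14 (15.1%) held GGGANNTTC, all of them of genes outside the filter, and 0 of the 32 windows of genes that passed. TATAAA was in 21 of the 93 windows (22.6%), 6 of them of genes that passed. A match is a description of letters, and binding of a factor was not measured.

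Levels of the 44 genes that passed were given as log2 of the background-subtracted, loess-normalised intensity, relative to the median spot of the channel, so that 0 is the level of the median spot. Over the 8 channels the range of a member (highest minus lowest) had a median of 0.64, against 0.58 over all 16422 genes tested. A range of at least 1 was found in 7 members (15.9%) and in 2367 genes overall (14.4%). Within groups, the median SD of the members was 0.20 in CTR, against 0.21 in ONC, and over all genes 0.18 and 0.16. ONC4, the dimmest channel before normalisation, was the highest for 10 members, CTR3 for 9, CTR4 for 8, ONC2 for 7, CTR1 for 5, ONC1 for 4, ONC3 for 1 and CTR2 for 0. CTR2 and ONC2, which share an array, were each the lowest channel for 11 members. Such counts were not taken over all genes, so a trait of the members cannot be told here from one of the channels.

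**Figure D3:**
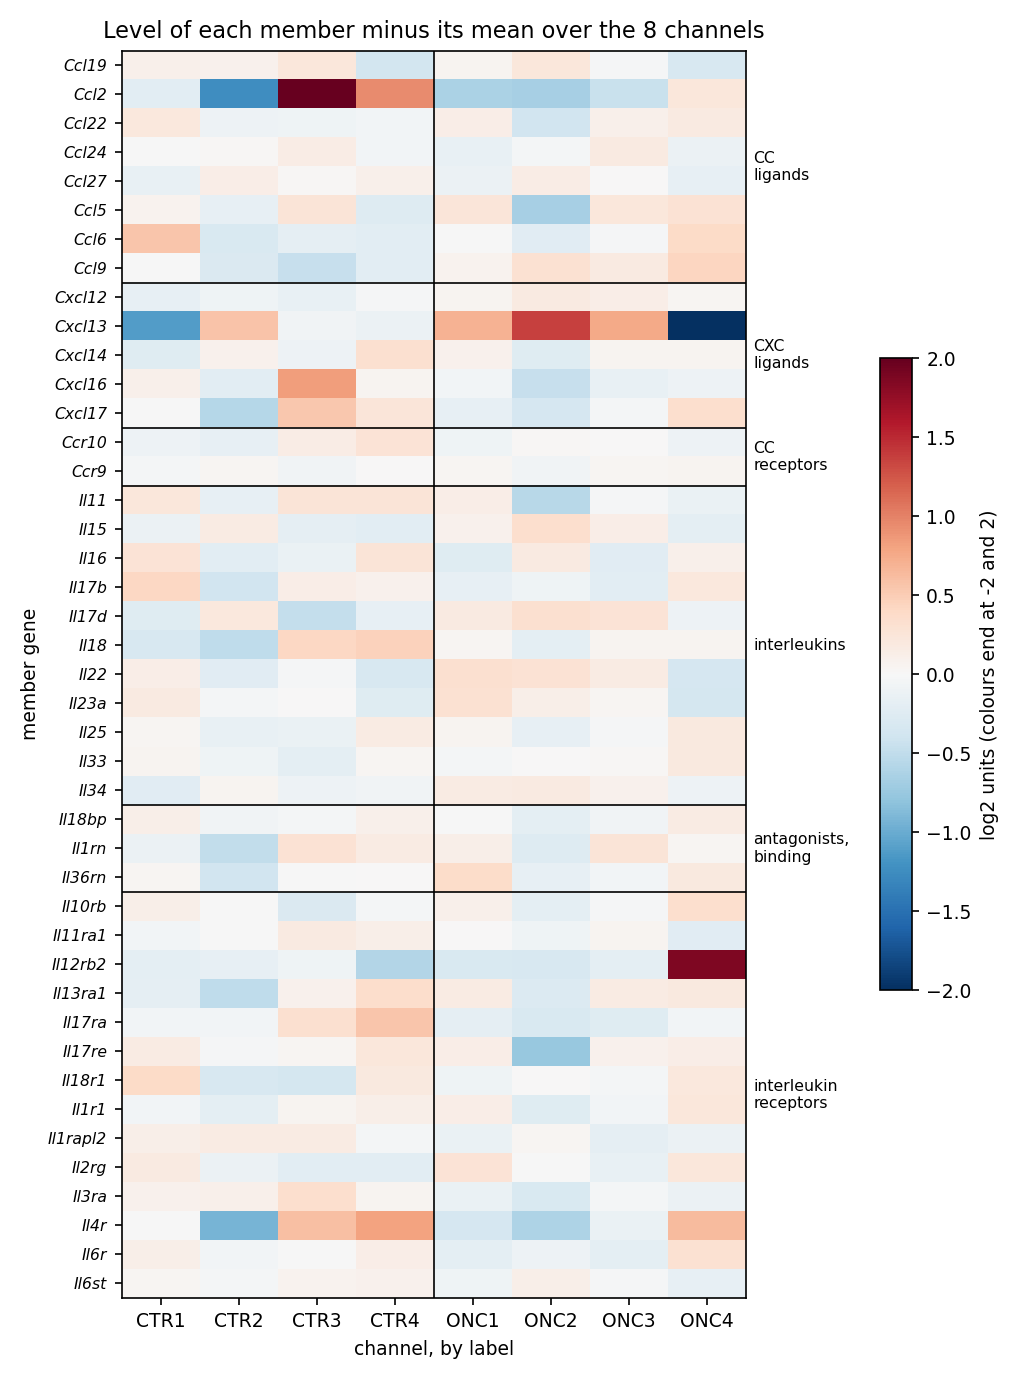
Level of 43 of the 44 genes (rows, by role) in each channel (columns) minus its mean over the 8 channels, in log2 units; colours end at -2 and 2. Most rows are pale. Ccl2 and Il4r are high in CTR3 and CTR4 and low in CTR2, and Il4r is also high in ONC4. Cxcl13 is low in ONC4 and Il12rb2 is high there.

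Between the labelled groups, none of the 44 members passed limma's test at an adjusted p under 0.05 over all genes. The count of 0 stands beside 80 of 16422 genes overall (0.487%), 37 higher and 43 lower in ONC; without any 1 channel the count overall was 0, except 15 without ONC2. With the array as a block the count of members was again 0, against 1221 genes overall (7.44%), 478 higher and 743 lower. Unadjusted p was under 0.05 for 5 members (Ccl9, Cxcl12, Il17ra, Il3ra and Il1rapl2) without the block and for 8 with it, while 18.3% of all genes were under it without the block and 31.0% with it. The methods' t-test put 4 members under 0.05 (9.09%, against 16.3% of all genes) and 0 after Benjamini-Hochberg adjustment. The study also required a fold change above a cut-off computed for each gene, which was not applied here. Without CTR2 and without ONC4 the count of members called was 0 each time, with 9 under an unadjusted 0.05 in each case (20.5%), against 19.8% of all genes without CTR2 and 19.6% without ONC4.

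Directions were even, with 22 members higher and 22 lower in the channels labelled ONC, but 31 higher and 13 lower when channels were scaled by their medians without loess, and 18 higher and 26 lower with the scanner software's processed signals. The median log2 fold change was -0.0026, against -0.015 over all genes, and the median size of the change was 0.11 against 0.14. Under scaling without loess 8 members passed the test, all higher in ONC, namely Ccl9, Il15, Il17d, Il18r1, Il1rn, Il22, Il25 and Il36rn. Genome-wide, that scaling called 2201 genes higher and 927 lower. Of those 8, Il1rn, Il22 and Il18r1 are the dimmest that passed the filter by their lowest ratio. By mean level, Il25 (-3.89) was dimmer than Il18r1 (-3.72) and Il22 (-3.52). Ccl9 and Cxcl12 were higher and Il3ra lower in every ONC channel than in every CTR channel, 3 of 44, while 12.5% of all genes were apart in this way. For Cxcl12 this holds for the mean of its probes and for neither probe alone, and for Il3ra for the dimmer of its probes.

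**Figure D4:**
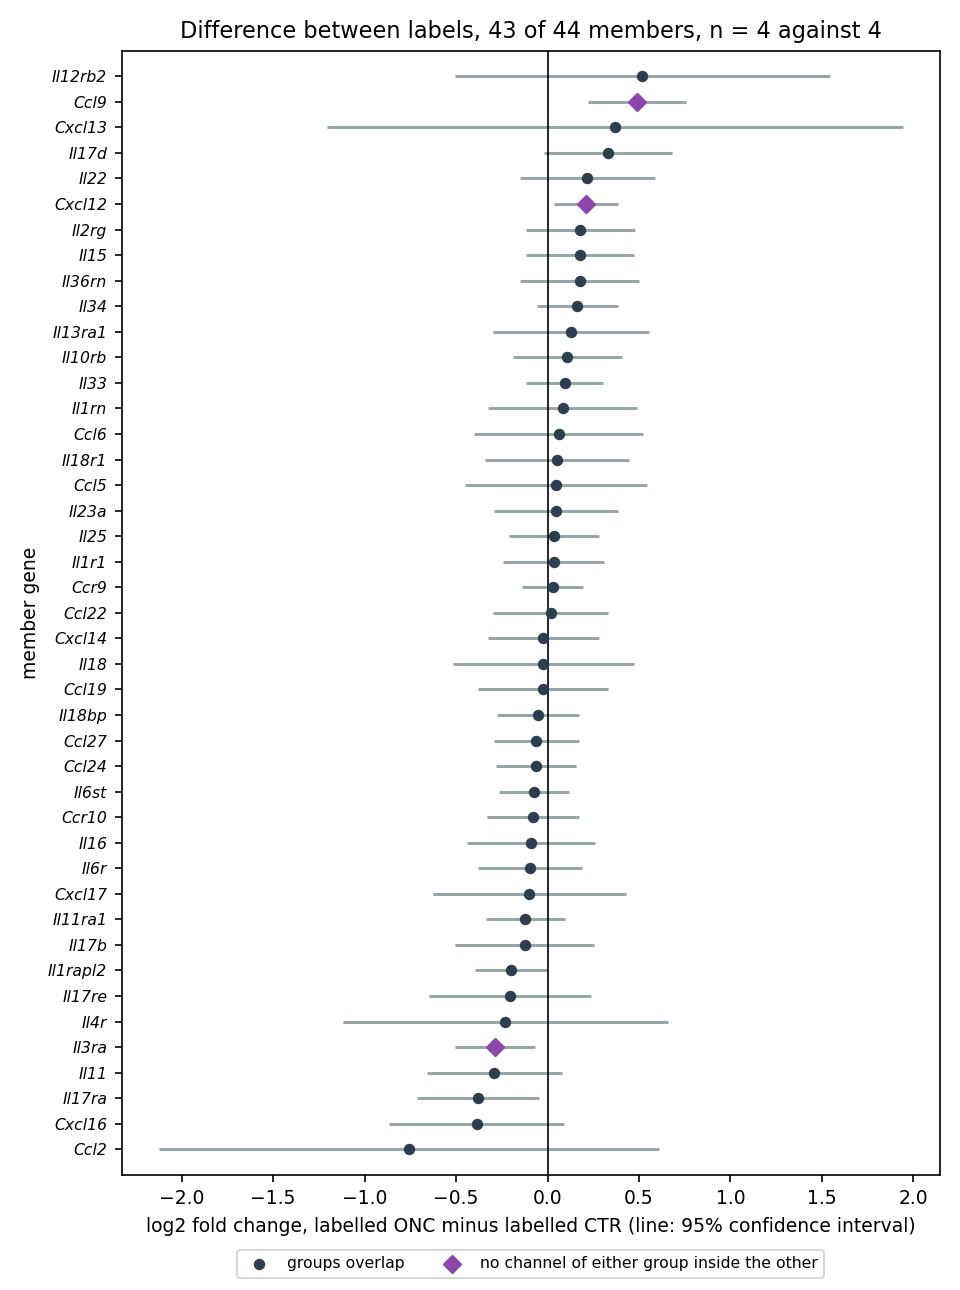
Log2 fold change (labelled ONC minus labelled CTR, horizontal) of 43 of the 44 genes with 95% confidence intervals from limma, n = 4 channels against 4; diamonds mark genes whose groups do not overlap. Values run from -0.76 in Ccl2 to 0.52 in Il12rb2, both with intervals that include 0; over all 44 genes 22 were higher and 22 lower, a split that becomes 31 and 13 without loess.

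Among the CC chemokines, Ccl2 varied the most. This attractant of monocytes, which acts through Ccr2, lies on chromosome 10 (probe at chr10:70257919-70257978, build rn4) and had levels of -3.34, -4.38, -1.12 and -2.18 in CTR1 to CTR4, against -3.76, -3.80, -3.59 and -2.91 in ONC1 to ONC4. CTR3 was 9.56-fold above CTR2, and the groups overlap. The log2 fold change was -0.76 ± 0.60 (SE, n = 4 and 4; adjusted p = 0.560 from limma), -1.30 without CTR2, -0.96 without ONC4, -0.21 without CTR3 and -0.29 under scaling without loess. In CTR3 the 10 copies of the probe had ratios of 6.30 to 12.3.

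Ccl9, a macrophage-derived chemokine of rodents, was the member with the smallest adjusted p. Its levels were 0.07, -0.21, -0.38 and -0.14 in CTR1 to CTR4, against 0.15, 0.38, 0.25 and 0.50 in ONC1 to ONC4, so the groups lie apart and each ONC channel was above its partner. The log2 fold change was 0.49 ± 0.12 (SE; adjusted p = 0.0878 from limma, 0.0530 with the array as a block), 0.47 without CTR2, 0.43 without ONC4 and 0.29 with processed signals. Adjusted p was 0.0255 under scaling without loess and between that and 0.305 over the alternatives run.

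Ccl24, an attractant of eosinophils through Ccr3, had levels of 4.36, 4.39, 4.51 and 4.31 in CTR, against 4.22, 4.32, 4.54 and 4.24 in ONC. Its log2 fold change was -0.06, with -0.22 under scaling without loess (adjusted p = 0.139 from limma) and 0.03 with processed signals. Ccl27, a ligand of Ccr10 known from skin, was at 1.45, 1.73, 1.63 and 1.71 in CTR, against 1.49, 1.75, 1.61 and 1.43 in ONC. In both genes the spread among channels of a label exceeded the difference between labels. Of the remaining CC chemokines, Ccl5 (an attractant of T cells and monocytes) differed by 0.05, Ccl6 by 0.06, Ccl19 (a ligand of Ccr7) by -0.03 and Ccl22 (a ligand of Ccr4) by 0.02, all in log2 units.

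Cxcl13, which attracts B cells through Cxcr5, differed widely between channels. Its levels were -3.34, -1.66, -2.29 and -2.34 in CTR1 to CTR4, against -1.52, -0.86, -1.46 and -4.31 in ONC1 to ONC4. ONC1, ONC2 and ONC3 were above every CTR channel, CTR2 was the highest of the CTR channels, and ONC4 was the lowest of all, at a ratio of 2.36 that negative controls also reach. The spot was not well above background in ONC4, so the level there is at best a bound, as is the distance from it to the other channels. The summed RGC markers given above were also highest in ONC1, ONC2, ONC3 and CTR2, in another order, and their part in the levels of Cxcl13 was not tested. The log2 fold change was 0.37 ± 0.70 (SE; adjusted p = 0.835 from limma), 0.62 without CTR2, 1.13 without ONC4, -0.03 without ONC2, 0.06 without CTR1, 0.69 under scaling without loess and 0.09 with processed signals. The study lists Cxcl13 among its downregulated genes, opposite in sign to the 0.37 found here.

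Cxcl12, the ligand of Cxcr4 and of Ackr3, was measured by a pair of probes. Its levels, the means of both, were 0.28, 0.35, 0.29 and 0.42 in CTR1 to CTR4, against 0.50, 0.62, 0.57 and 0.49 in ONC1 to ONC4, with a log2 fold change of 0.21 ± 0.077 (SE; adjusted p = 0.198 from limma) and ONC higher on 4 of 4 arrays. The probes gave differences of 0.23 and 0.19 but ran differently over the channels, with ranges of 0.72 and 0.69 against 0.34 for their mean. CTR2 was the highest CTR channel on one, at 0.38, and the lowest on the other, at 0.32. Without CTR2 the change was 0.21, without ONC4 0.23 and with processed signals 0.11.

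Cxcl16, a chemokine made as a membrane protein and bound by Cxcr6, was at -0.06, -0.37, 0.69 and -0.10 in CTR, against -0.20, -0.62, -0.31 and -0.25 in ONC. CTR3 stood highest, and the log2 fold change of -0.39 became -0.17 without it, -0.52 without CTR2 and -0.42 without ONC4. Cxcl14, known from epithelia, had levels of 4.30, 4.63, 4.45 and 4.86 in CTR, against 4.64, 4.31, 4.61 and 4.60 in ONC, a difference of -0.02 that turned to 0.08 without CTR4 and was -0.20 under scaling without loess. Cxcl17 differed by -0.10 with a range of 1.10.

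Of the chemokine receptors, Ccr9, which binds Ccl25, differed by 0.03 and varied least of all members, with a range of 0.13. Ccr10, a receptor of Ccl27, differed by -0.08.

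Over the 8 channels, the 11 interleukins that passed had a median range of 0.65, against 0.58 over all genes, and ranges of 0.35 to 0.96. Il33, a nuclear protein released on cell damage and known from glia, was at 1.97, 1.84, 1.72 and 1.96 in CTR, against 1.88, 1.93, 1.94 and 2.11 in ONC. Its log2 fold change was 0.09, and -0.08 with processed signals. Il34, which shares the receptor Csf1r with Csf1 and supports microglia, differed by 0.16 ± 0.098 (SE). Il17d, of the interleukin 17 family, had the largest positive difference among the interleukins, 0.33 ± 0.16 (SE; adjusted p = 0.299 from limma), with 0.50 under scaling without loess (adjusted p = 0.0497), and Il11, which signals through Il6st, the largest negative one, -0.29, which turned to 0.06 under that scaling and was -0.15 without ONC2. Of the 11 interleukins, 7 were higher and 4 lower in ONC, but all 11 were higher under scaling without loess. Il18, which inflammasomes release in active form, had levels of -2.32 and -2.27 in CTR3 and CTR4, its highest channels, against -3.04 and -3.24 in CTR1 and CTR2.

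Differences of the natural inhibitors of these pathways moved with the scaling. Il1rn and Il36rn, antagonists of the receptors for interleukins 1 and 36, differed by 0.08 and 0.18, but by 0.84 and 0.68 under scaling without loess, where both were called. Il18bp, which binds interleukin 18, differed by -0.05, but its probes gave -0.19 and 0.09. The median of the 3 was 0.08, against 0.68 under that scaling and -0.09 with processed signals.

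Among the receptor chains, Il12rb2 had the largest difference, set by 1 channel. This signalling chain of the interleukin 12 receptor (probe at chr4:96929795-96929854, build rn4) was at -3.43, -3.40, -3.33 and -3.83 in CTR1 to CTR4, against -3.55, -3.56, -3.44 and -1.37 in ONC1 to ONC4. The log2 fold change was 0.52 ± 0.45 (SE; adjusted p = 0.597 from limma), 0.55 without CTR2 and -0.02 without ONC4. It was 1.02 under scaling without loess (adjusted p = 0.148) and 0.81 with processed signals.

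Il4r, the chain that interleukins 4 and 13 share, again had its highest levels in CTR3 and CTR4 among the CTR channels. Levels were -2.32, -3.25, -1.72 and -1.51 in CTR, against -2.65, -2.93, -2.45 and -1.69 in ONC. Its log2 fold change of -0.23 was -0.58 without CTR2, -0.48 without ONC4, -0.06 without ONC2, -0.07 without CTR3, 0.0015 without CTR4 and 0.02 under scaling without loess, and its probes differed, at -0.49 and 0.03.

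Il17ra, the chain common to several receptors of the interleukin 17 family, had levels of 0.87, 0.86, 1.24 and 1.48 in CTR, against 0.75, 0.63, 0.68 and 0.88 in ONC. It was lower in ONC on all 4 arrays, with a log2 fold change of -0.38 ± 0.15 (SE; adjusted p = 0.220 from limma), -0.46 without CTR2 and -0.43 without ONC4, although ONC4 lay above CTR1 and CTR2.

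Il3ra, the binding chain for interleukin 3, had levels of -0.69, -0.68, -0.45 and -0.72 in CTR1 to CTR4, against -0.90, -1.08, -0.82 and -0.89 in ONC1 to ONC4. The groups lie apart, with a log2 fold change of -0.29 ± 0.096 (SE; adjusted p = 0.165 from limma) and -0.19 under scaling without loess, but the difference comes from a single probe. That probe gave -0.62 and the brighter one 0.04. Il6st, the signalling chain of the interleukin 6 family, was at 1.997, 1.92, 2.03 and 2.04 in CTR, against 1.88, 2.07, 1.95 and 1.80 in ONC, a difference of -0.07. Il2rg, the chain common to interleukins 2, 4, 15 and 21 among others, differed by 0.18, and Il13ra1 by 0.13, with 0.37 on its dim probe and -0.12 on the other. The synaptic receptor-like gene Il1rapl2 differed by -0.20, or 0.11 under scaling without loess and -0.09 with processed signals. Cxcl12 and Il3ra were given by channel because their groups lie apart, a choice made after their values were seen. Over the 31 members that no rule singled out by size of change, level or range, these included, log2 fold changes ran from -0.29 to 0.33 and ranges from 0.13 to 1.10.

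**Figure D5:**
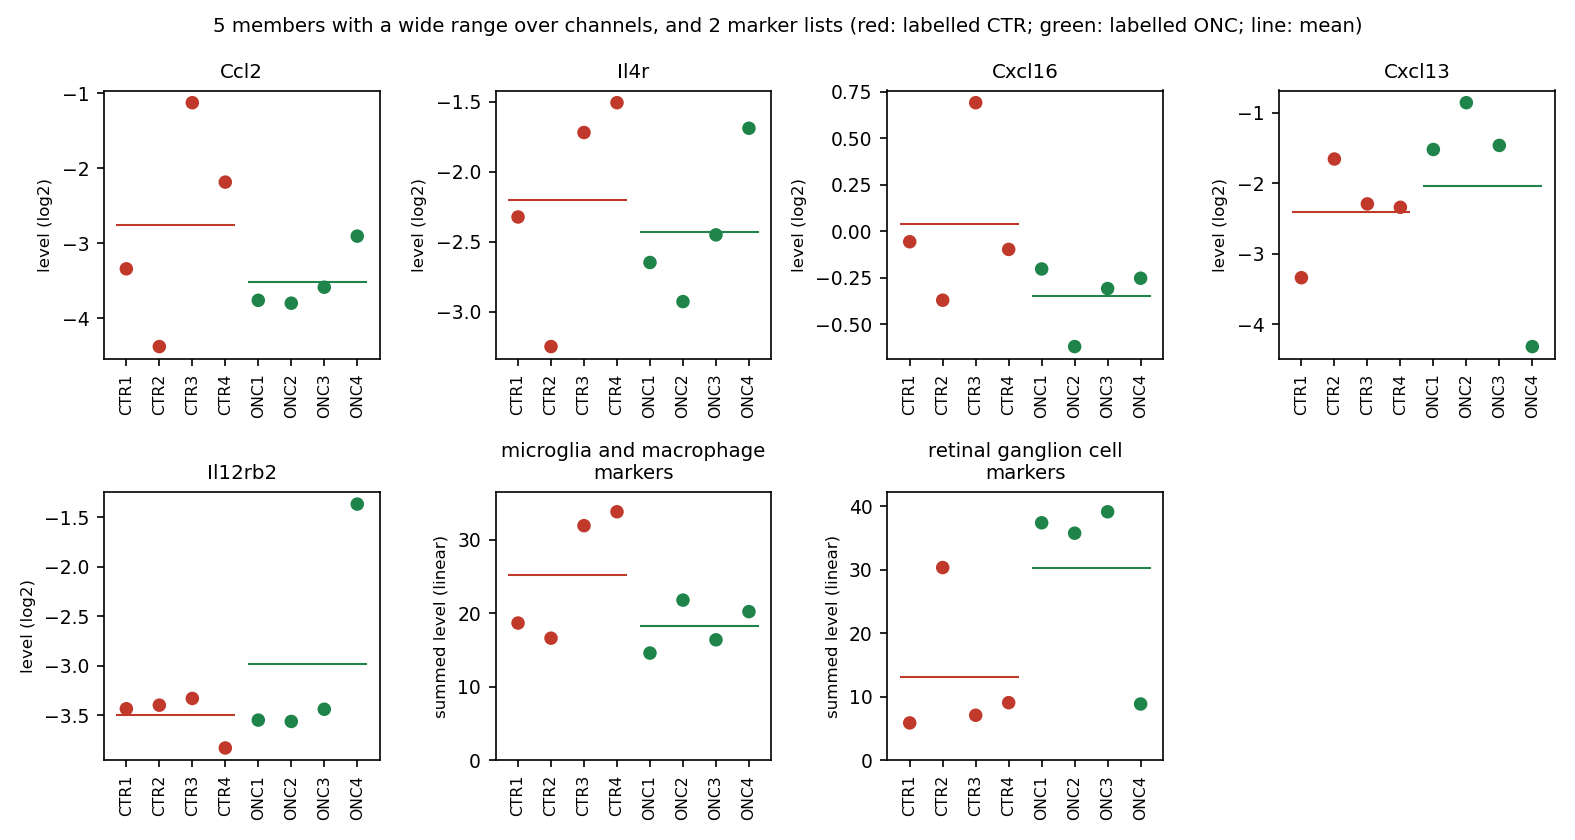
Levels (log2, relative to the channel's median spot) in each channel of 5 members with a wide range, and summed linear levels of microglia and macrophage markers and of RGC markers; red points are channels labelled CTR, green points channels labelled ONC, lines are group means. Ccl2 and Il4r are highest in CTR3 or CTR4, where microglia markers sum to 31.9 and 33.8. Il4r is also high in ONC4 (-1.69, against -1.72 in CTR3), where microglia markers sum to 20.2. Cxcl13 is low in ONC4, where RGC markers sum to 8.86.

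Most markers of microglia and macrophages had their highest level in CTR3 or CTR4, where Ccl2, Cxcl10 and Ccl20 were also highest. Of 17 such markers 15 were measured above the filter, with C1qb the brightest and the macrophage markers Mrc1 and Cd163 below the filter. Their summed level was 18.7, 16.6, 31.9 and 33.8 in CTR1 to CTR4, against 14.6, 21.8, 16.4 and 20.2 in ONC1 to ONC4. CTR4 was the highest channel for 7 of the 15, CTR3 for 6, CTR1 for Trem2 and ONC4 for Cx3cr1. The sum weighs bright markers most. The median log2 level of the 15, which is that of Trem2, was highest in CTR1, at 0.16 against 0.00053 in CTR3 and -0.07 in CTR4. Between labels their median log2 fold change was -0.30, with 14 of 15 lower in ONC and 0 called by limma with or without the block. Aif1, a marker of both cell types, was at 1.81 and 1.71 in CTR3 and CTR4 and at 1.04 or below in the other channels. Of the 8 Müller glia and astrocyte markers, CTR4 was the highest channel for 4 and CTR3 for 2, although the summed level of this list, led by Dkk3, was 179, 161, 172 and 137 over the CTR channels, against 157, 130, 156 and 153 over the ONC channels. Gfap, a filament protein of astrocytes and of reactive Müller glia, was at -0.21 and 0.16 in CTR3 and CTR4 and at -3.27 to -1.58 in the other channels, with the lowest in ONC2. Its log2 fold change was -1.15 (adjusted p = 0.299 from limma), and -0.75 without ONC2. The directions given for Gfap and for the microglia and macrophage markers follow the labels, which the RGC markers go against. The study, by contrast, reports immune response genes among those upregulated after ONC. Of 7 endothelium and pericyte markers, CTR4 was highest for 3, CTR3 for 2 and ONC4 for 2. The summed level of this list was highest in ONC4, at 110 against 90.8 in CTR3 and 89.4 in CTR4. The part of these cells in the levels of the chemokines was not tested. All 7 neutrophil markers were below the filter, as were 7 of 10 T and NK cell markers and the B cell markers Cd79b and Ms4a1, while Cd79a had no spot by that name.

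Other genes of these signalling systems were taken from lists of 102 names, of which 68 were tested. Limma called 0 of them without the block, with 17 at an unadjusted p under 0.05 (25.0%, against 18.3% of all genes). The blocked fit called 5, all lower in ONC, a share of 7.35% against 7.44% of all genes. Of the 68, 23 were higher and 45 lower, with a median log2 fold change of -0.13. The 5 were Traf6, which relays signals of interleukin 1 receptors, at -0.45 (adjusted p = 0.107 and 0.0332 with the block), its partner kinase Map3k7 at -0.43 (0.252 and 0.0470), the inhibitor Nfkbib at -0.32 (0.130 and 0.0463), the interferon receptor chain Ifnar1 at -0.45 (0.191 and 0.0477) and Tgfbr1 at -0.40 (0.0760 and 0.0383). The largest differences were those of Jak3 (-0.53), a kinase bound to Il2rg, Csf3 (-0.51), Ptpn6 (-0.50), Ifnar1 and Traf6. That of Jak3 (adjusted p = 0.648 from limma) was -1.06 without CTR2, -0.30 without CTR3, -0.26 without CTR4 and -0.22 without ONC2. The study lists Jak3 among its upregulated genes, the opposite direction. Processed signals gave -0.34 for Csf3, -0.16 for Nfkbib and -0.24 for Tgfbr1, and scaling without loess -0.25 for Traf6.

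By list, 41 of 56 signal transducers were tested, with a median of -0.19, and 21 of 30 other cytokines and receptors, with -0.08. For chemokine genes whose names the patterns do not cover, 6 of 16 were tested, with a median of 0.16. Among these, Cx3cl1, the chemokine of neurons that acts on microglia, had the brightest signal and differed by 0.21. Its receptor Cx3cr1 differed by 0.39 (adjusted p = 0.201 from limma) and the atypical Cxcl12 receptor Ackr3 by 0.22. Cx3cr1 thus lay in the opposite direction to the 14 microglia markers that were lower.

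Of the 121 genes, 120 were placed on 19 chromosomes, and several form clusters of related genes; Il2rb had no position in the files. On chromosome 10 there are 19, among them 10 CC chemokines, and on chromosome 14 there are 8 CXC chemokines, of which Cxcl13 alone passed. Chromosome 8 holds 12, with 7 CC receptors. Some genes overlap another protein-coding gene in RefSeq, among them Ccl27 with Il11ra1, Ccr10 with Cntnap1, Cxcl16 with Zmynd15, Il18 with Bco2 and Tex12, Il1rn and Il36rn with Il36b, Il6r with She, Il34 with Rpl29l3, Il1rapl2 with Tex13a, and Cxcl10 with Art3, so their probe signals are uncertain where the transcripts cannot be separated.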

How the data were processed

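The authors deposited intensity values per spot for 4 arrays of 2 colours, as written by Agilent Feature Extraction (version 11.1.19.1 per the submitters' processing notes): mean foreground, median local background and a processed signal that is background-subtracted and dye-normalised within the array. Genes were named as in the files, and all 121 symbols were found in RefSeq. Spots under a foreground of 2 times the background in any channel, control spots and outlier-marked spots were left out. Background was subtracted, loess applied within arrays (span 0.3), channels centred on their medians, and spots averaged per probe and gene. Limma 3.58.1 in R 4.3.3 compared 4 channels with 4, with Benjamini-Hochberg adjustment over all genes. It was tested on simulated data with independent noise in each channel, which does not cover correlation between channels of an array. Same-numbered channels share an array per the labels, and their deviations from group means correlated at 0.179, 0.546, 0.405 and 0.485, so a fit with the array as a block was run. Genes were described channel by channel if called, among the 5 largest changes, highest levels or widest ranges, or named in the study's tables; Cxcl12 and Il3ra were added after their values were seen. Members, pathway lists and cell marker lists were chosen with earlier results of these data known. Promoters came from RefSeq (GRCr8). Some genes are not reported here on their own, and counts and medians over lists include them.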

Additional observations from a re-analysis of the deposited data

Results flagged for a closer look

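In 13 of 88 groups of 4 channels, 1 channel lay far from the other 3 (a gap over the group's range above Dixon's 95% critical value), where chance gives about 1 in 20. This share of 14.8% stands beside 8.00% over all genes tested, 2629 of 32844 groups, and the genes share the same 8 channels. ONC2 stood low in 7 of these, with levels of -3.01 for Ccl22, -3.15 for Ccl5, -0.0294 for Ccr9, 4.31 for Cxcl14, -2.03 for Il13ra1, -2.70 for Il17re and -2.93 for Il18. CTR1 stood high for Ccl22 (-2.42) and Ccl6 (-2.53). CTR2 stood low for Il11 (-2.90) and Il36rn (-3.57), and CTR3 high for Il3ra (-0.45). Il12rb2 stood high in ONC4 at -1.37.

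Among genes outside the filter, the highest ratio of foreground over background was 45.6 for Ccl3 in ONC2, from 1 of 10 copies, which carried an outlier mark; the other copies had 2.53 to 3.73 there. Il1f10 had 37.1 in ONC4, from its only spot, also marked. Ccl20 had 19.14 and Cxcl10 16.1 in CTR3, and Ccr6 had 14.7 in ONC4, from spots without a mark.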

How the results depend on the processing

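The 44 genes at the filter became 61 at a factor of 1.5, 33 at 3, 43 with median foreground, 39 by the well-above-background flag and 30 against the negative control level, an alternative chosen after seeing the data; without 1 channel the count was 44 to 49.

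Genes called overall numbered 80 (37 higher, 43 lower). They were 3128 under median scaling without loess (2201 higher, 927 lower), 405 with Aquantile, 0 with normexp (2576 at an unadjusted p under 0.05), 21 with processed signals, 221 at a factor of 3, 0 with normexp and no filter (2049 unadjusted), 1221 with the replicate block and 419 against the negative control level. Leaving out 1 channel gave 0 to 15, with 15 without ONC2. The methods' t-test, without the fold change cut-off that the study also required, gave 2676 and, after Benjamini-Hochberg, 0. The cause was not tested.

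Members called were 0 and became 8 under median scaling without loess and 4 by the methods' t-test without adjustment; every other alternative run gave 0, the block and each left-out channel included. The members' median log2 fold change stayed between -0.07 and 0.16.

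Directions were followed for 25 genes, and 16 had no reversal. Reversed were Ccl24 (0.0267) and Il33 (-0.0763) with processed signals, Cxcl14 (0.0050) with normexp and no filter, Il11 (0.0585), Il1rapl2 (0.11) and Il4r (0.0189) under median scaling, and Il3ra (0.0432) with the brightest probe. With 1 channel left out, Cxcl13 ran from -0.0262 (without ONC2) to 1.13, Cxcl14 from -0.11 to 0.0788, Il12rb2 from -0.0187 (without ONC4) to 0.71 and Il4r from -0.58 to 0.0015. Other alternatives kept 224 directions and calls and brought 9 past the threshold. Beyond the count over all genes and the pathway and marker genes named with it, the block changed no other call given here. In green channels, negative controls at 2.40 to 2.55 times the background limit what dim genes can show.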

Other observations

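Markers of the other cells of the eye give the setting of these levels. Their directions follow the labels, which the RGC markers go against. Every list had 0 genes called without the block. Rod and cone markers (12 of 13 tested) had a median log2 fold change of -0.26. For Müller glia and astrocyte markers (8 of 8, Dkk3 the brightest) it was -0.29, with Gfap at -1.15 (-0.75 without ONC2). Medians were 0.22 for bipolar (7 of 7, Pcp2), 0.02 for amacrine (8 of 8, Calb2) and -0.05 for endothelium and pericyte markers (7 of 8, Kdr). They were 0.11 for pigment epithelium (5 of 9, Ttr), -0.38 for lens (10 of 10, Cryab) and -0.05 for cornea and conjunctiva markers (3 of 6). For blood markers (4 of 6, Hba1) the median was 0.15, and for T and NK cell markers (3 of 10, Nkg7) -0.09. With the array as a block, 2 rod and cone, 2 Müller glia and astrocyte and 1 amacrine marker were called lower in ONC, in a fit that called 7.44% of all genes. Lens markers summed to 216 in CTR2 and 128 in ONC4, and to 70.2 to 124 in the other channels. CTR2 was the highest channel for 9 of the 10, and their median is smaller in size without it. Pigment epithelium markers had their lowest sum in ONC2, 25.2, and their median is larger without that channel.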
